A study of Homo sapiens with 9 samples.

Results

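The genes described here are 49 genes of the lysosome, of autophagy and of the proton pump that acidifies the lysosome, chosen by name from 58721 annotated genes. They were found by matching each symbol to the versioned Ensembl identifiers of the count files through GENCODE release 29, and all 49 matched 1 identifier each. By role they are 19 lysosomal hydrolases (6 proteases, 10 enzymes that degrade glycans and 3 that act on lipids), 5 lysosomal membrane proteins, a lipid carrier and an activator precursor of the lysosomal lumen, 8 subunits of the proton pump, 12 autophagy genes and 3 transcription factors of the MiT/TFE family. RNA was measured by sequencing in 9 libraries of H1299, an established human line of non-small cell lung carcinoma. The control cells were in serum free medium, a second group received siCLOCK (small interfering RNA against the circadian factor CLOCK), and the third received 0.1 mM melatonin, with 3 libraries per group. Whether the treated cells were also without serum, how long they were treated and whether any control siRNA was used is not given in the sources used here. The labels number the libraries of a group but do not say that they came from separate cultures, so the tests cover only variation among these libraries, which may be technical.

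Lysosomes are acidic organelles in which hydrolases break down proteins, glycans and lipids, and autophagy delivers portions of cytoplasm to them inside double-membraned vesicles. The V-ATPase, a rotary proton pump made of a cytosolic V1 sector and a membrane V0 sector, provides the acid pH that the hydrolases need. TFEB, TFE3 and MITF are basic helix-loop-helix factors that bind the E-box CACGTG in the promoters of many lysosomal and autophagy genes. Their activity is set largely by phosphorylation through the kinase complex mTORC1 on the lysosomal surface, which holds them in the cytosol, so their RNA level is not a measure of their activity. CLOCK with its partner ARNTL is known to bind the same E-box.

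Because these factors share the E-box, 5 promoters that hold it are printed below to show where it lies in genes that differed in their response. All 5 are among the 8 genes, of 37 with a promoter window, in which CACGTG was found, so they do not stand for the other genes. Each run is the 300 bases from 250 before to 50 after the transcription start, 5′ to 3′ on the gene's own strand, from RefSeq on GRCh38.p14. Capitals mark every CACGTG. NEU1, CTSA, GAA and LAMP1 are genes whose RNA was higher in melatonin, and MCOLN1 is one that was not called.
NEU1 (chr6:31862772-31863071, minus strand): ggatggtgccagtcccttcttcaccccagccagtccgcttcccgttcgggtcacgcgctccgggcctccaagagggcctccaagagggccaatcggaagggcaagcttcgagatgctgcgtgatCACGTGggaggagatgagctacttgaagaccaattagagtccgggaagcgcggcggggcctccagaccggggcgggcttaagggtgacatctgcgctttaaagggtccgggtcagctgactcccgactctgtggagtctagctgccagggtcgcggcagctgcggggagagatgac
CTSA (chr20:45891085-45891384, plus strand): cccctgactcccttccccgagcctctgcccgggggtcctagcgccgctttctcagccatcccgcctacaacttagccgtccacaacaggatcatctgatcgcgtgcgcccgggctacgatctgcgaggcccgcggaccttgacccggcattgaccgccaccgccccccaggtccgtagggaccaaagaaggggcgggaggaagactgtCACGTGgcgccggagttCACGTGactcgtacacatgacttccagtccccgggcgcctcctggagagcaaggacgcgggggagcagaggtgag
GAA (chr17:80101331-80101630, plus strand): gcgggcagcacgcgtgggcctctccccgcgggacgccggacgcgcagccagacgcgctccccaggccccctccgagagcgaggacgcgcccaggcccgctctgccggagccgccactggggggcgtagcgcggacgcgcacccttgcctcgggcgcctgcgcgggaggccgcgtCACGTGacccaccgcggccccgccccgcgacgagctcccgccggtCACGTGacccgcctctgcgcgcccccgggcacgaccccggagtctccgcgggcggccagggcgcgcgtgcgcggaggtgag
LAMP1 (chr13:113296989-113297288, plus strand): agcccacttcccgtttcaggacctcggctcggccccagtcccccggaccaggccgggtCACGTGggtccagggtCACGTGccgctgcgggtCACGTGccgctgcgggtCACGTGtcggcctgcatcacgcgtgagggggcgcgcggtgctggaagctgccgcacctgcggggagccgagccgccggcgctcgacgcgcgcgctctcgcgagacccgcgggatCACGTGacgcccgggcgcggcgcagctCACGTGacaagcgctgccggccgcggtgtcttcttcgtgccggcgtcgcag
MCOLN1 (chr19:7522374-7522673, plus strand): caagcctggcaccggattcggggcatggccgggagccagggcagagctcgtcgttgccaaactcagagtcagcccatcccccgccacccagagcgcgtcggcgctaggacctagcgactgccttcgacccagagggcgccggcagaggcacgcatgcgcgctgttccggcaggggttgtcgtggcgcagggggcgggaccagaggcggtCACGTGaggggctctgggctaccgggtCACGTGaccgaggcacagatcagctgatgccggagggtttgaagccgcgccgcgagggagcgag
Counting from the start site, with -1 as the base before it, the first base of CACGTG lay at -126 in NEU1, at -42 and -25 in CTSA, at -76 and -31 in GAA, and at -41 and -14 in MCOLN1. LAMP1 held 6 copies, at -192, -176, -159, -142, -28 and -1.

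The promoter table held windows for 37 of the 49 genes. CACGTG, which reads the same on both strands, was present in 8 of these 37 genes (21.6%), against 10.9% of 15843 protein-coding genes in the same table. Besides the 5 printed, the genes were CTSD, CD63 and ATP6V0D1. The longer TCACGTG, searched on both strands and always overlapping CACGTG, was in 7 of 37 genes (18.9%, against 5.83% of protein-coding genes). Of 21 matched genes that were higher in melatonin 6 held CACGTG, and of 16 that were not called 2 did. These are matches of letters in a window of 300 bases and not measured binding.

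Gene counts per library ranged from 15384539 to 19192962, and all 49 genes passed the filter on low counts. CLOCK, the target of the siRNA, stood at 51.5%, 78.7% and 93.8% of the control mean in siCLOCK replicates 1, 2 and 3, with a log2 fold change of -0.42 that did not pass the test (adjusted p = 0.340). The library labelled siCLOCK replicate 3 hardly shows the reduction its label implies. That library also shares features of its reads with the melatonin libraries. Unmapped reads made up 2.24% to 2.34% of reads in these 4 libraries and 1.22% to 1.36% in the other 5, and no control library was in the former set. The same 4 libraries had 0.314% to 0.324% of their gene counts in processed pseudogenes, against 0.163% to 0.172% in the other 5. These 4 libraries are called the second technical set here, a name that rests on their reads alone. The labels give no batch, and the origin of the difference was not tested. Melatonin and this technical set can therefore be told apart only through the library labelled siCLOCK replicate 3. The markers KRT8, KRT18, VIM and CDH2, known from H1299, summed to 2204 to 2548 CPM (counts relative to library size, TMM-scaled) in control, 2270 to 2494 in siCLOCK and 1865 to 1923 in melatonin. KRT8, KRT18 and VIM were called lower in melatonin against control (-0.31, -0.31 and -0.30 on the log2 scale, adjusted p = 0.00930, 0.0188 and 0.00251), and the part of this in the results below was not tested. Of 8 macrophage and leukocyte markers, cells rich in lysosomes, AIF1 and TYROBP were at 0 in every library. The sum of all 8 was 5.5 to 7.12 CPM in control, 4.51 to 6.45 in siCLOCK and 3.41 to 4.10 in melatonin. Most of each sum was ITGAM, which alone passed the filter. It stood at 5.13 to 6.95 CPM in control, 4.30 to 5.93 in siCLOCK and 2.88 to 3.28 in melatonin. ITGAM was called lower in melatonin against control (-1.01 on the log2 scale, edgeR adjusted p = 0.000234).

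The comparison of melatonin with control asked how the hormone altered these genes. Of the 49 genes, 29 were higher in melatonin, none was lower and 20 were not called. Without melatonin replicate 2 the count of higher genes was 17, and without control replicate 2 it was 19. A gene was called at an adjusted p under 0.05, and at this rule 11.0% of all 16441 tested genes were higher and 12.1% lower. The log2 fold changes of the 29 genes lay between 0.18 and 0.98, so most changes were modest, and only NEU1 came close to doubling. The median over the 49 genes was 0.22, against 0.0106 over all tested genes. In 33 of the 49 genes the 3 melatonin libraries all lay above the 3 controls and in none all below, where 21.9% and 21.4% of all genes did so. Together the 49 genes took 4572 to 4736 CPM in the controls, 4951 to 5401 in siCLOCK and 5532 to 5666 in melatonin. In bulk RNA, a larger share of cells with a transcript and more of it per cell cannot be told apart.

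**Figure D1:**
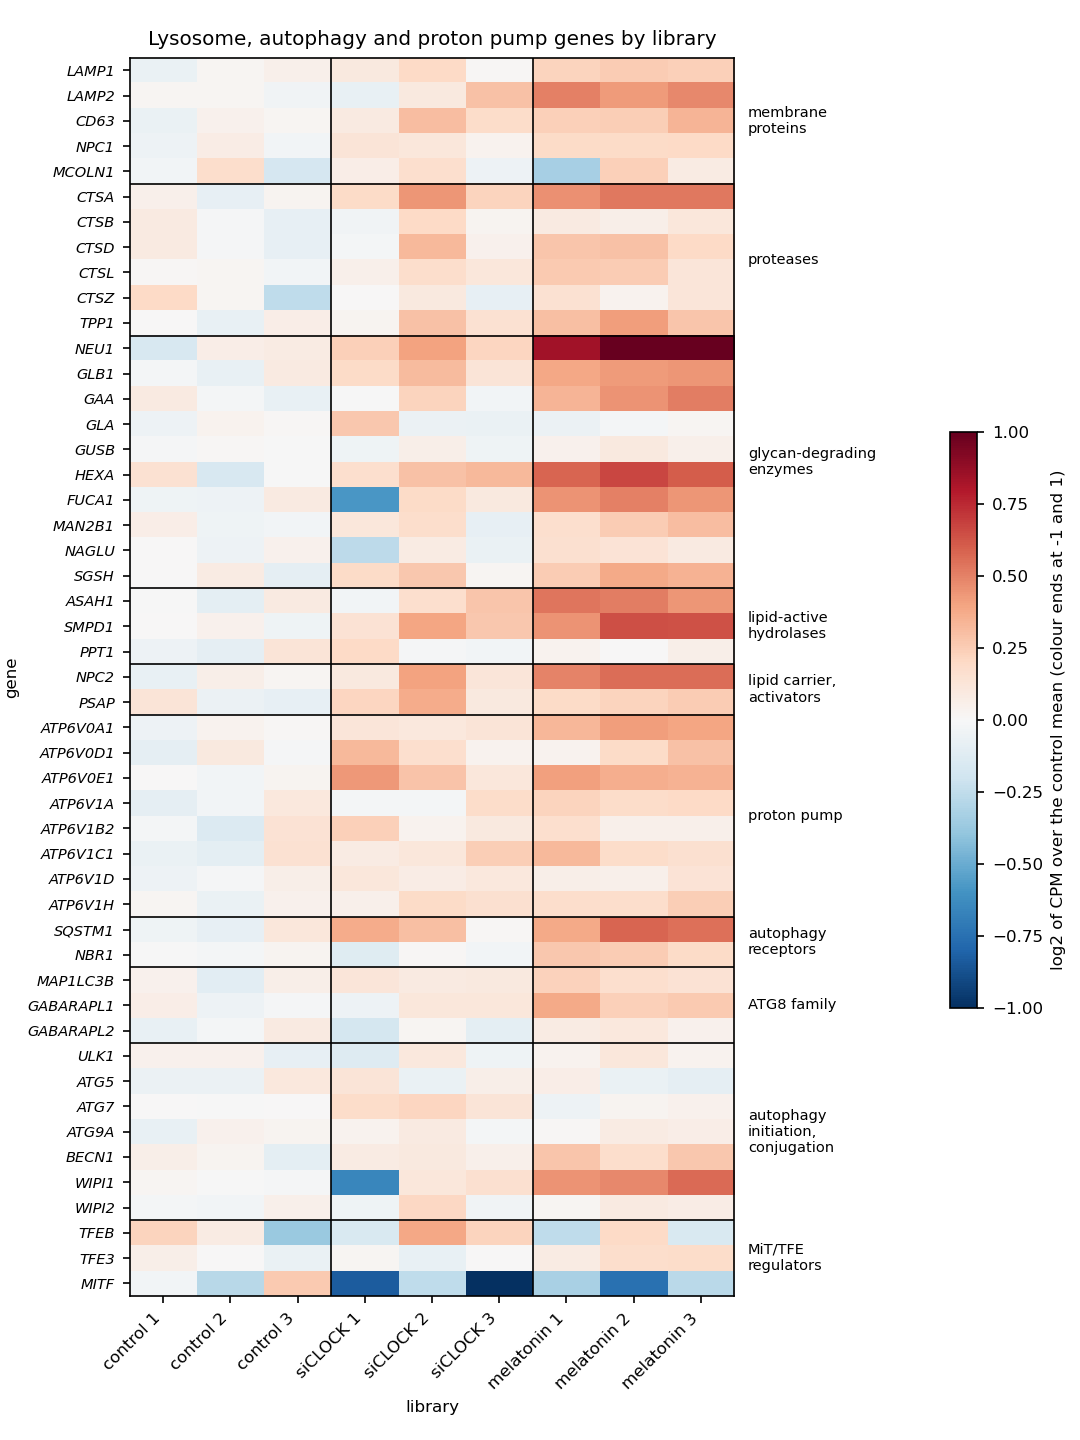
Log2 of each gene's TMM-scaled CPM over its mean in the 3 controls, with 49 genes in rows grouped by role and 9 libraries in columns, red above and blue below the control mean. Red fills most of the 3 melatonin columns, with NEU1 darkest, while the siCLOCK columns are paler and the MiT/TFE rows show no common shift.

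With a term for the technical set in the model, 12 of the 49 genes were higher and none lower, where 1.72% of all genes were higher and 2.96% lower. All 29 called genes kept a positive log2 fold change with that term, but they had been selected as positive in the same libraries, which favours a kept sign. The median over the 49 genes was 0.22, and the median standard error over all genes rose from 0.101 to 0.169. Since the term is estimated from the library labelled siCLOCK replicate 3 against siCLOCK replicates 1 and 2, its melatonin values also take in how those 2 libraries differed from control. Within the second set, all 3 melatonin libraries were above the library labelled siCLOCK replicate 3 in 40 of the 49 genes and all below it in 2, where 34.4% of all genes were above and 34.3% below.

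Of the 10 enzymes that degrade glycans 7 were higher in melatonin, with a median log2 fold change of 0.37. The largest change of all 49 was in NEU1 (ENSG00000204386.10, chromosome 6, 31857659 to 31862906 on GRCh38), the sialidase that removes terminal sialic acids in the lysosome. It stood at 27.1, 31.7 and 32 CPM in the controls, 35.8, 40.1 and 35.0 CPM in siCLOCK and 54.2, 62.5 and 62.4 CPM in melatonin. All melatonin libraries were well above the other 6, and the siCLOCK libraries were all above the controls. Its log2 fold change in melatonin was 0.98 (SE 0.09, adjusted p = 3.43e-07), or 1.98-fold, and 1.10 with the set term (adjusted p = 0.000109).

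NEU1 protein is known to be active in a complex with the protective protein encoded by CTSA (chromosome 20, 45890144 to 45898820), a serine carboxypeptidase. That complex also holds the beta-galactosidase encoded by GLB1 (chromosome 3, 32996608 to 33097230). RNA of all 3 partners rose. CTSA was at 232, 211 and 229 CPM in control, 256, 303 and 261 CPM in siCLOCK and 307, 322 and 323 CPM in melatonin (log2 fold change 0.50, SE 0.07, adjusted p = 4.82e-05 for melatonin against control). The 3 groups stepped upwards without overlap, siCLOCK lying between control and melatonin. GLB1 showed the same order, with 50.9, 49.1 and 55.1 CPM in control, 59.2, 64.5 and 56.6 CPM in siCLOCK and 67.6, 69.6 and 70.2 CPM in melatonin (0.42, SE 0.07, adjusted p = 0.000341). With the set term both remained higher, CTSA at 0.60 (adjusted p = 0.00331) and GLB1 at 0.55 (adjusted p = 0.00884). About 28.5% of the exon length of CTSA overlaps other genes on the opposite strand, among them NEURL2 and PLTP, and these unstranded counts leave out reads from the overlap.

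GAA, the acid alpha-glucosidase that degrades glycogen, stood at 74.0, 68.7 and 66.1 CPM in control, 69.6, 81.4 and 68.3 CPM in siCLOCK and 88, 95.1 and 99.3 CPM in melatonin. Melatonin was above all other libraries, while siCLOCK overlapped control (log2 fold change in melatonin 0.44, SE 0.08, adjusted p = 0.000524). HEXA, the alpha subunit of beta-hexosaminidase A, which degrades the ganglioside GM2, was at 13.1, 10.5 and 11.7 CPM in control, 13.2, 14.4 and 14.7 CPM in siCLOCK and 17.6, 18.7 and 17.9 CPM in melatonin. Its rise of 0.62 (SE 0.10, adjusted p = 0.000162) was the second largest of the 49 genes, but with the set term it was 0.52 and not called (adjusted p = 0.0822).

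FUCA1, which removes fucose, was at 25.6, 25.5 and 28.1 CPM in control and at 36.1, 37.5 and 35.9 CPM in melatonin, without overlap. In siCLOCK it was uneven, with 17.6 CPM in replicate 1 against 30.2 and 28.2 CPM in the other 2 libraries. The melatonin log2 fold change of 0.47 (SE 0.13, adjusted p = 0.0134) went to 0.23 with the set term (adjusted p = 0.619). The call was also lost without control replicate 1 (adjusted p = 0.0568), control replicate 2 (adjusted p = 0.0640) or melatonin replicate 2 (adjusted p = 0.0547). SGSH, the heparan sulfatase, rose by 0.33 and the alpha-mannosidase MAN2B1 by 0.25, and both were higher with the set term too, at 0.54 and 0.47. MAN2B1 lost its call without control replicate 2 or 3 or melatonin replicate 2 or 3 (adjusted p from 0.0742 to 0.138). GLA, GUSB and NAGLU, which act on globosides, glucuronides and heparan sulfate, were not called.

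**Figure D2:**
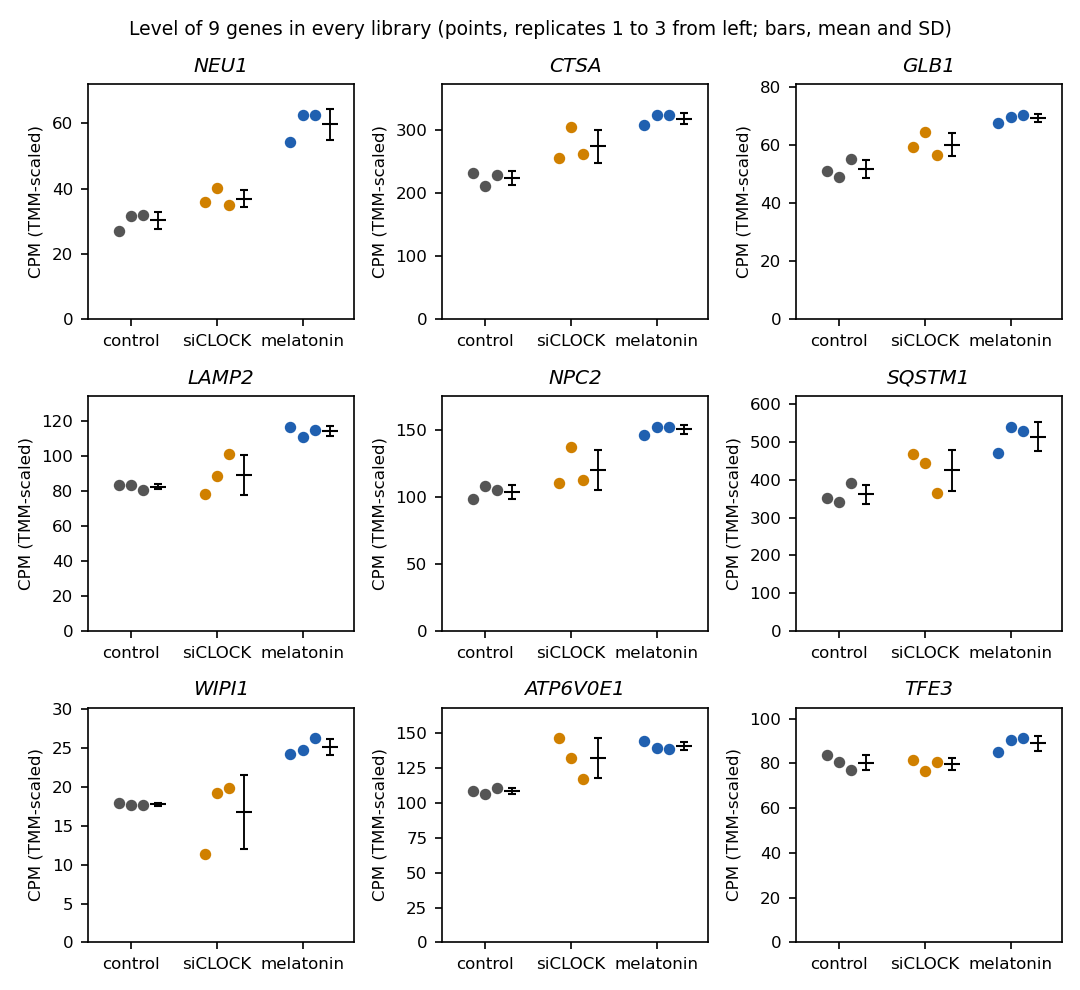
TMM-scaled CPM of 9 genes in each library, by group (points, replicates 1 to 3 from the left) with mean and SD over 3 libraries; the axis starts at 0. Melatonin lies above control without overlap in all 9 panels, with NEU1 at 54.2 to 62.5 against 27.1 to 32 CPM, while siCLOCK replicate 1 stands low in WIPI1 at 11.3 CPM.

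Of the 6 proteases 4 were higher. Apart from CTSA, the tripeptidyl peptidase TPP1 was higher by 0.33 (SE 0.07, adjusted p = 0.00304), the aspartic protease CTSD by 0.26 (SE 0.08, adjusted p = 0.0273) and the cysteine protease CTSL by 0.21 (SE 0.07, adjusted p = 0.0290). For CTSD the controls had 86.6, 80.4 and 76.9 CPM, siCLOCK 80.3, 102 and 83.6 CPM and melatonin 98.6, 99.8 and 93.5 CPM. Melatonin exceeded every control, but siCLOCK replicate 2 was the highest library of all. Some 52.7% of the exon length of CTSD overlaps other annotated genes, so its counts come from the rest. The CTSD call was lost without control replicate 2 or 3 or any melatonin library (adjusted p from 0.0545 to 0.111). With the set term TPP1, CTSD and CTSL were not called (adjusted p = 0.132, 0.120 and 0.346). The CTSL call was also lost without any control library or melatonin replicate 1 or 2 (adjusted p from 0.0684 to 0.139). CTSB, an abundant cysteine cathepsin, had 214, 200 and 190 CPM in control, 197, 231 and 205 CPM in siCLOCK and 215, 210 and 217 CPM in melatonin, where the groups overlapped (log2 fold change 0.09, SE 0.07, adjusted p = 0.384). CTSZ was not called either.

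Among the enzymes acting on lipids, ASAH1 and SMPD1, which stand at consecutive points of sphingolipid breakdown as acid ceramidase and acid sphingomyelinase, were higher, while PPT1, which removes palmitate from proteins, was not called. ASAH1 was at 54.9, 51.5 and 58.6 CPM in control, 53.8, 61.8 and 66.8 CPM in siCLOCK and 79.8, 78.4 and 74.5 CPM in melatonin (0.50, SE 0.08, adjusted p = 0.000200). Within siCLOCK the highest library was the one labelled replicate 3, and with the set term the melatonin value was 0.29 (adjusted p = 0.217). SMPD1 was at 12.8, 13.2 and 12.5 CPM in control, 14.2, 16.8 and 15.5 CPM in siCLOCK and 17.5, 20.1 and 19.9 CPM in melatonin, the 3 groups again in steps (0.58, SE 0.09, adjusted p = 0.000226, and 0.59 with the set term, adjusted p = 0.0471).

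The lipid carrier and the activator precursor of the lumen were both higher. NPC2, which hands cholesterol to the membrane protein NPC1, was at 98.3, 108 and 105 CPM in control, 111, 137 and 113 CPM in siCLOCK and 146, 153 and 152 CPM in melatonin (0.54, SE 0.08, adjusted p = 6.29e-05, and 0.67 with the set term). All siCLOCK libraries lay above the controls and below melatonin. PSAP, the precursor of the saposins that activate sphingolipid hydrolases, rose by 0.22 (SE 0.07, adjusted p = 0.0326). It averaged 539 CPM ± 42.6 (SD, n = 3) in control, 633 ± 61.5 in siCLOCK and 629 ± 13.3 in melatonin, so both treated groups had similar means, and the set term gave 0.42 for melatonin (adjusted p = 0.0326). The PSAP call was lost without control replicate 2 or 3 or any melatonin library (adjusted p from 0.0711 to 0.130).

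Of the 5 membrane proteins 4 were higher in melatonin. LAMP2, a heavily glycosylated protein that lines the lysosomal membrane and serves as receptor for chaperone-mediated autophagy, was at 83.4, 83.4 and 80.5 CPM in control, 78.1, 88.3 and 101 CPM in siCLOCK and 117, 111 and 115 CPM in melatonin. The library labelled siCLOCK replicate 3 was the highest of its group. The LAMP2 change of 0.47 (SE 0.08, adjusted p = 0.000290) fell to 0.19 with the set term (adjusted p = 0.395). Its relative LAMP1 was at 153, 162 and 165 CPM in control, 172, 184 and 162 CPM in siCLOCK and 187, 191 and 189 CPM in melatonin (0.24, SE 0.06, adjusted p = 0.0106). Here the set term gave a larger value, 0.38 (adjusted p = 0.0412), while calls were lost without control replicate 1 (adjusted p = 0.0620) or melatonin replicate 2 (adjusted p = 0.0581). The tetraspanin CD63 rose by 0.27, a call lost with the set term (0.29, adjusted p = 0.145), and the cholesterol exporter NPC1 by 0.19 (adjusted p = 0.0372), but NPC1 lost its call in 11 of 22 alternatives, among them without control replicate 1 or 3 or any melatonin library (adjusted p from 0.0904 to 0.140). MCOLN1, the calcium channel mucolipin-1, was not called and scattered within melatonin, at 14.6, 21.7 and 19.4 CPM against 18, 20.7 and 16.3 CPM in control.

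Of the 8 proton pump subunits 4 were higher, with a median log2 fold change of 0.20, against 13 of 19 and 0.33 for the hydrolases, a difference between roles that was not tested. The 2 larger changes were in the membrane sector. ATP6V0A1, an isoform of the proton-conducting a subunit, rose from 52.6 CPM ± 1.65 (SD, n = 3) to 68.6 ± 2.14 (0.38, SE 0.06, adjusted p = 0.000308, and 0.37 with the set term, adjusted p = 0.0654). ATP6V0E1, a small V0 subunit, was at 109, 106 and 111 CPM in control, 146, 132 and 117 CPM in siCLOCK and 144, 139 and 138 CPM in melatonin. Both treated groups were above control, and siCLOCK overlapped melatonin (0.37, SE 0.07, adjusted p = 0.00110 for melatonin, and 0.62 with the set term). The cytosolic subunits ATP6V1C1 (0.22) and ATP6V1H (0.20) were called but lost the call with the set term (adjusted p = 0.801 and 0.483). Both also lost it without control replicate 1 or 2 or any melatonin library (adjusted p from 0.0658 to 0.210 and from 0.0738 to 0.165). On second-strand counts ATP6V1H stood at 0.034 (adjusted p = 0.830). The catalytic subunit ATP6V1A was at 52.0, 54.3 and 59.4 CPM in control, 54.6, 54.6 and 62.8 CPM in siCLOCK and 64.4, 62.6 and 63.5 CPM in melatonin. Its value of 0.20 (SE 0.07) missed the threshold (adjusted p = 0.0572) and passed it without control replicate 3, siCLOCK replicate 1 or the library labelled siCLOCK replicate 3 (adjusted p from 0.0311 to 0.0324). That last library lay within the melatonin range, and the set term gave 0.00. ATP6V0D1, ATP6V1B2 and ATP6V1D were not called.

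**Figure D3:**
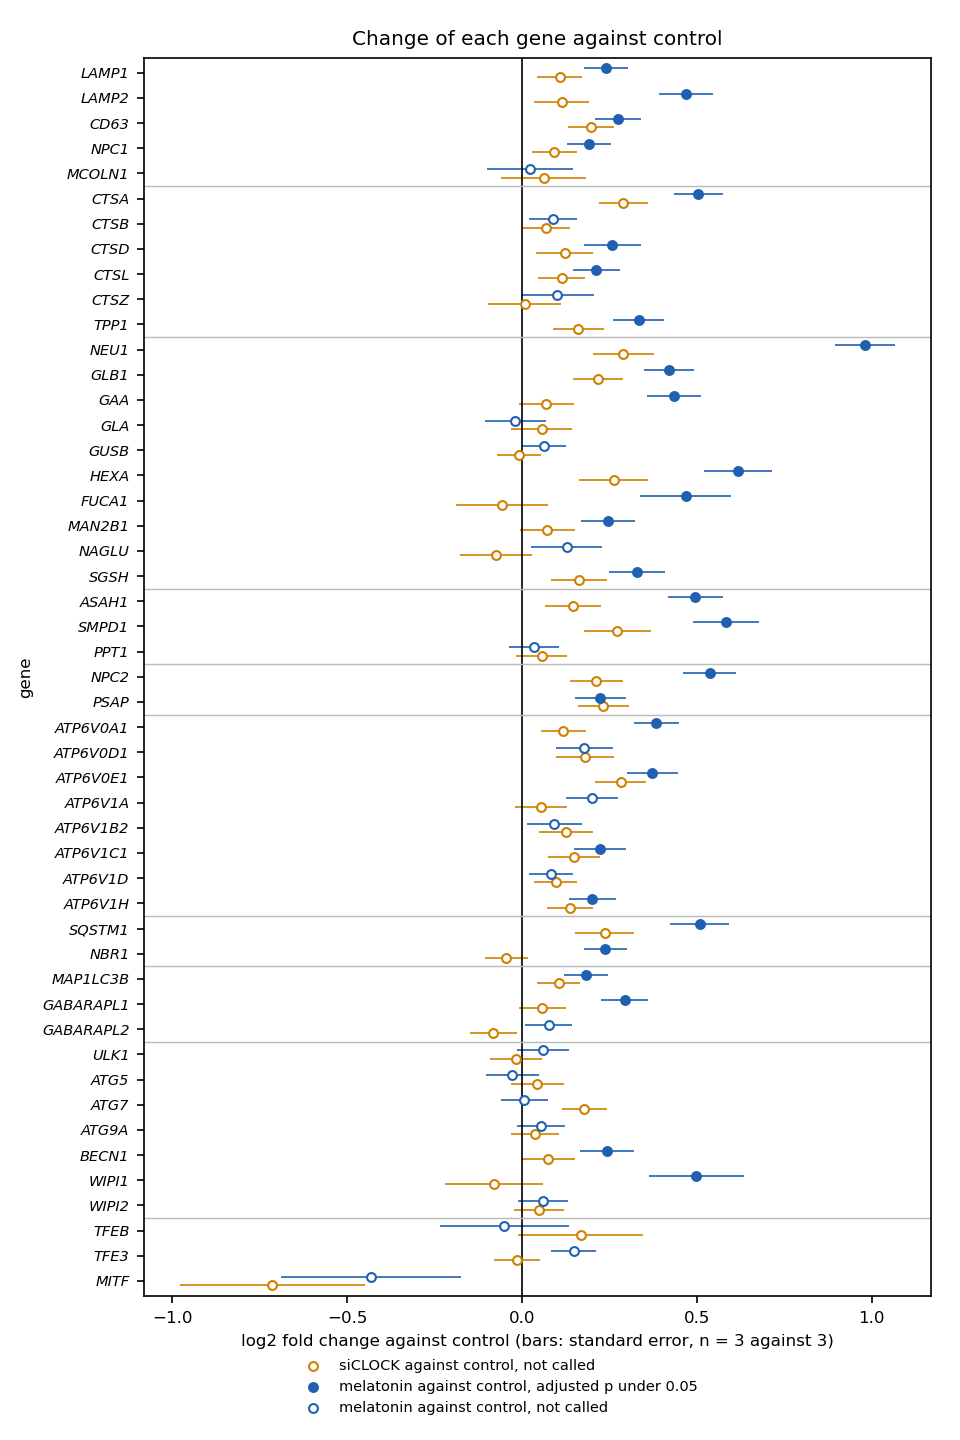
Log2 fold change against control, with its standard error, for the 49 genes in the order of the roles; filled points passed an adjusted p of 0.05, open points did not. In melatonin 29 points are filled and all lie right of 0, and no siCLOCK point is filled although 40 of 49 lie right of 0.

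Of 12 autophagy genes 6 were higher, namely both receptors, 2 of 3 ATG8 proteins and 2 of 7 genes of initiation and conjugation. SQSTM1, the receptor p62 that links ubiquitylated cargo to the forming autophagosome, was at 351, 342 and 390 CPM in control, 467, 446 and 364 CPM in siCLOCK and 470, 541 and 530 CPM in melatonin. Melatonin was above all other libraries, and siCLOCK replicates 1 and 2 were above control while the library labelled siCLOCK replicate 3 was not. The melatonin change of 0.51 (SE 0.08, adjusted p = 0.000289) was 0.83 with the set term (adjusted p = 0.000153), a fit that takes in the higher level of siCLOCK replicates 1 and 2. NBR1, a receptor with a similar domain layout, rose by 0.24 (SE 0.06, adjusted p = 0.00884), a call that the set term ended (0.22, adjusted p = 0.288), as did leaving out melatonin replicate 1 or 2 (adjusted p from 0.0523 to 0.0543).

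Of the ATG8 proteins, which are lipidated onto the autophagosome membrane, GABARAPL1 rose by 0.29 (SE 0.07, adjusted p = 0.00407) and MAP1LC3B by 0.18, while GABARAPL2 was not called. With the set term neither was called (adjusted p = 0.333 and 0.365). MAP1LC3B was at 172, 155 and 173 CPM in control, 181, 178 and 179 CPM in siCLOCK and 196, 187 and 185 CPM in melatonin, in steps that did not overlap. Its adjusted p of 0.0410 was the highest of the called genes, and the call was lost in 10 of 22 alternatives, among them without control replicate 1 or 2 or any melatonin library (adjusted p from 0.0618 to 0.200). Both genes have near-identical relatives in the genome, and reads that map to more than 1 place are not in these counts.

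WIPI1, which binds PI3P on the early autophagosome, was at 18, 17.7 and 17.6 CPM in control, 11.3, 19.2 and 19.9 CPM in siCLOCK and 24.3, 24.8 and 26.3 CPM in melatonin. The controls were tight and melatonin stood apart, but siCLOCK replicate 1 was far below every other library. The change of 0.50 (SE 0.14, adjusted p = 0.0127) was lost without control replicate 2 (adjusted p = 0.0505) or melatonin replicate 3 (adjusted p = 0.0580) and was 0.12 with the set term (adjusted p = 0.828). BECN1, a subunit of the PI3-kinase complex that makes PI3P, rose by 0.24 (SE 0.08, adjusted p = 0.0270), a call lost with the set term (adjusted p = 0.254), with no filter, and without control replicate 2 or 3 or any melatonin library (adjusted p from 0.0522 to 0.112). On second-strand counts BECN1 stood at 0.060 (adjusted p = 0.648). The kinase ULK1, the conjugation factors ATG5 and ATG7, the lipid scramblase ATG9A and WIPI2 were not called. ATG7 was the only one of the 49 genes in which melatonin, at 48.0 to 51.4 CPM, lay wholly below siCLOCK, at 54.5 to 57.9 CPM.

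None of the 3 MiT/TFE factors was called in any comparison. TFE3 was at 83.6, 80.5 and 76.9 CPM in control, 81.5, 76.5 and 80.6 CPM in siCLOCK and 85.1, 90.5 and 91.3 CPM in melatonin. The melatonin libraries lay just above the rest, with a log2 fold change of 0.15 (SE 0.06, adjusted p = 0.109). TFEB was low, at 4.83, 4.39 and 3.20 CPM in control, 3.73, 5.43 and 4.83 CPM in siCLOCK and 3.47, 4.75 and 3.73 CPM in melatonin, with full overlap (-0.05, SE 0.18, adjusted p = 0.881). MITF was close to the lower limit of what was tested, at 1.70, 1.43 and 2.08 CPM in control, 0.974, 1.45 and 0.735 CPM in siCLOCK and 1.39, 1.03 and 1.44 CPM in melatonin. Its melatonin value of -0.43 (SE 0.26, adjusted p = 0.242) turned to 0.29 with the set term, and no direction can be given. Per kilobase of exon, TFE3 had 18.8 CPM in control against 0.733 for TFEB and 0.242 for MITF, so TFE3 gave most of the RNA of these 3 factors.

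On the same scale of CPM per kilobase in control, PSAP was highest of the 49 genes at 166 ± 13.1 (SD, n = 3), then CD63 at 130 ± 5.06, ATP6V0E1 at 66.9 ± 1.27 and SQSTM1 at 47.2 ± 3.34, each apart from its neighbour in every library. PPT1, CTSA and NPC2 followed at 38.4, 38.2 and 37.7 and did not differ beyond their spread. In melatonin NPC2 and CTSA had 54.7 and 54.2, while PPT1 had 39.3. NEU1 was among the lower genes at 6.27 ± 0.563 in control and 12.4 in melatonin. The exon length here joins all annotated exons of a gene, which lowers the value of genes with many long isoforms such as HEXA at 0.933. It also includes stretches that overlap other genes, whose reads are not counted, which lowers the value of such genes. The overlap was 28.5% of the exon length in CTSA, 23.4% in PPT1, 22.0% in SQSTM1 and 6.37% in NPC2, so the order of these genes is uncertain.

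The comparison of siCLOCK with control asked how these genes stood after the siRNA against CLOCK, whose own RNA was not called lower. None of the 49 genes passed in either direction (edgeR, adjusted p), where 0.0547% of all genes were higher and 0.0669% lower, so a count of 0 is near the background. At an unadjusted p under 0.05, 13 of the 49 were higher and 1, MITF, was lower, where 4.49% and 3.75% of all genes were. DESeq2 called 1 gene higher, CTSA. With the set term 4 were higher and none lower (CTSA, PSAP, ATP6V0E1 and SQSTM1), where 0.444% and 0.262% of all genes were. In 14 of the 49 genes the 3 siCLOCK libraries lay above all controls and in none below, against 5.75% and 5.06% of all genes. The median log2 fold change was 0.10, against 0.00325 over all genes.

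The siCLOCK libraries were not alike in this. Replicate 2 was above every control in 37 of the 49 genes, replicate 1 in 26 and the library labelled replicate 3 in 22, where 26.6%, 31.1% and 27.6% of all genes were. The largest positive values were in NEU1 (0.29, adjusted p = 0.292), CTSA (0.29, adjusted p = 0.146), ATP6V0E1 (0.28, adjusted p = 0.189), SQSTM1 (0.24, adjusted p = 0.404) and PSAP (0.23, adjusted p = 0.318), with SMPD1 (0.27, adjusted p = 0.393) and HEXA (0.26, adjusted p = 0.435) among them. Without the library labelled siCLOCK replicate 3, which retained most of its CLOCK, 3 genes passed: CTSA at 0.32 (adjusted p = 0.0462), ATP6V0E1 at 0.35 (adjusted p = 0.0158) and SQSTM1 at 0.33 (adjusted p = 0.0327). Without siCLOCK replicate 1, CTSA passed at 0.33 (adjusted p = 0.0317). FUCA1 (-0.06) and WIPI1 (-0.08) owed their sign to siCLOCK replicate 1 and stood at 0.15 and 0.14 without it. MITF had the most negative value, -0.71 (adjusted p = 0.426), in a gene with 0.735 to 2.08 CPM over the 9 libraries.

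Melatonin against siCLOCK, the comparison of the 2 treatments, gave 14 genes higher, none lower and 35 not called, where 7.43% of all genes were higher and 10.1% lower. In 22 of the 49 genes melatonin lay wholly above siCLOCK and in 1 wholly below, against 16.8% and 17.4% of all genes. It shares the melatonin libraries with the comparison above, and all 14 genes were also called there. By role they were 7 hydrolases, the membrane protein LAMP2 (0.35, adjusted p = 0.00404), the lipid carrier NPC2 (0.32, adjusted p = 0.00656), the pump subunit ATP6V0A1 (0.27, adjusted p = 0.00752) and 4 autophagy genes. NEU1 differed most at 0.69 (adjusted p = 2.08e-05), then WIPI1 at 0.58 (adjusted p = 0.00682) and FUCA1 at 0.53 (adjusted p = 0.00886), for both of which siCLOCK replicate 1 was low. GAA (0.37), HEXA (0.36), ASAH1 (0.35), SMPD1 (0.31) and CTSA (0.21) were the other hydrolases. Of the autophagy genes NBR1 differed by 0.28, SQSTM1 by 0.27 and GABARAPL1 by 0.24. With the set term 4 of the 49 were higher and none lower, where 2.0% and 3.85% of all genes were. Without melatonin replicate 2 the count was 9, with CTSA, HEXA, SMPD1, SQSTM1 and ATP6V0A1 lost (adjusted p from 0.0515 to 0.139 over all libraries whose removal ended one of these 5 calls). Removal of melatonin replicate 1 or 3 or siCLOCK replicate 1 ended calls of CTSA, SMPD1, SQSTM1 or GABARAPL1, removal of the library labelled siCLOCK replicate 3 those of CTSA and SQSTM1, and removal of control replicate 1 that of CTSA.

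Further genes of the same pathways, from 7 lists with 169 symbols, were mostly higher in melatonin where they were called, and 157 of them passed the filter on low counts. Of these 157 genes 56 were higher and 5 lower than in control, where 11.0% of all genes were higher and 12.1% lower. Their median log2 fold change was 0.17, against 0.0106 over all tested genes. The set term left 16 higher and 1 lower, where 1.72% and 2.96% of all genes were. Of the 28 genes that the rule for naming took from these lists, 16 were called whichever library was left out, and 12 lost the call without 1 or more of the control or melatonin libraries (ATG4A, ATP6AP2, CCPG1, DMXL2, MAP1LC3A, PIK3C3, RRAGB, TOLLIP, VPS18, VPS33A, WDFY3 and WDR7). Of the genes named below, ATP6AP1, IDUA, HYAL2, CTNS, CLCN7, GNPTG, VPS18, TOLLIP and TSC1 were also called with the set term and the others were not. ATP6V0C, CLN3 and GABARAP were among the 12 that did not pass the filter, and their levels are not described.

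Of 31 other lysosomal hydrolases 20 rose and 2 fell, with a median of 0.32, where 11.0% of all genes were higher and 12.1% lower. The same shares of all genes stand beside the counts of the lists that follow. IDUA, which degrades dermatan and heparan sulfate, rose from 9.25 CPM ± 0.944 (SD, n = 3) to 16.7 ± 2.02 (0.85, adjusted p = 3.06e-05). The beta-mannosidase MANBA (0.62) and the hyaluronidase HYAL2 (0.60) were also higher. IDUA shares its locus with a gene on the other strand, so its count is less certain. Of 19 other membrane proteins 8 rose and 1 fell, with OSTM1 (0.49) and the chloride transporter CLCN7 (0.44), which form 1 complex, the cystine exporter CTNS (0.45) and the sialic acid exporter SLC17A5 (0.40). Among 20 genes of enzyme delivery 10 rose, led by GNPTG (0.59), a subunit of the enzyme that makes the mannose 6-phosphate tag, and by VPS41 (0.36), VPS33A (0.35) and VPS18 (0.33) of the HOPS tethering complex.

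In the remaining lists fewer genes passed. Of 18 other pump subunits and assembly factors 4 rose, namely the accessory proteins ATP6AP1 (0.39) and ATP6AP2 (0.26) and the assembly factors DMXL2 (0.31) and WDR7 (0.25). Of 32 other autophagy genes 4 rose and 1 fell, a share of 12.5% higher that is near the 11.0% of all genes. ATG2B, the lipid transfer protein (0.29), PIK3C3, the PI3-kinase itself (0.29), and the protease ATG4A (0.30) rose, and the conjugating enzyme ATG3 fell by 0.28 on the log2 scale. Of 14 other ATG8 proteins and receptors 5 rose, among them CCPG1 (0.37), MAP1LC3A (0.36), TOLLIP (0.32) and WDFY3 (0.23). Of 23 genes of the mTORC1 and folliculin control of MiT/TFE factors 5 rose and 1 fell. The Rag GTPases RRAGC (0.47) and RRAGB (0.34) and the mTORC1 inhibitor TSC1 (0.34) rose, and RHEB, the GTPase that activates mTORC1, fell from 296 CPM ± 24.3 (SD, n = 3) to 233 ± 6.49 (-0.35, adjusted p = 0.00115).

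**Figure D4:**
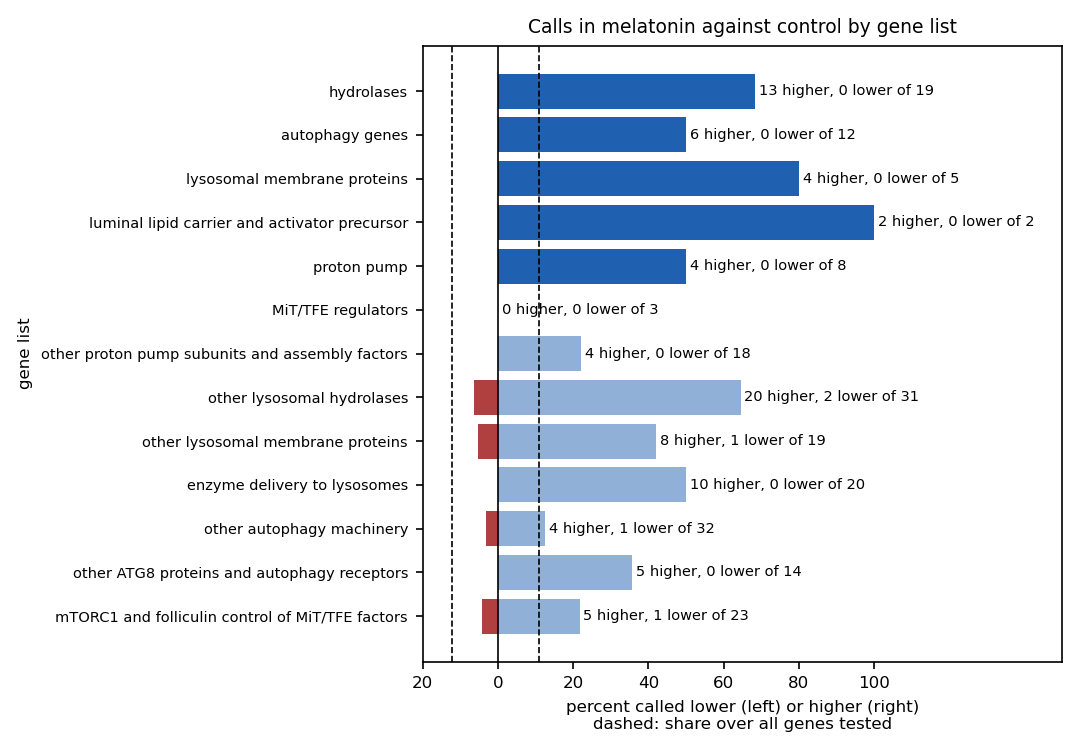
Share of the tested genes of each list called higher (right) or lower (left) in melatonin against control, dark blue bars for the 49 genes by role, light blue for the further lists and red for genes called lower, with the shares over all 16441 genes as dashed lines. Both hydrolase lists stand far right of the 11.0% line, at 13 of 19 and 20 of 31, while the MiT/TFE factors have no call and other autophagy genes sit near the line.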

How the data were processed

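Gene counts were deposited by the authors as whole numbers per gene, made with STAR 2.7.9a on GRCh38 per the submitters' processing notes, after 4 summary lines that were left out of library sizes. The annotation release is not given in the sources used here. All 58721 identifiers matched GENCODE release 29. The strand columns had nearly equal totals (ratio 1.01 to 1.05), so counts regardless of strand were used, and reads where genes overlap are not in them. In R 4.3.3, edgeR 4.0.16 kept 16441 genes (filterByExpr), scaled libraries by TMM and fitted all 9 libraries together, the group being the only factor, with the quasi-likelihood test. P-values were adjusted by the Benjamini-Hochberg method over all genes tested, with a threshold of 0.05. Levels are TMM-scaled CPM, and the standard error is the log2 fold change over the square root of F. The procedure was tested on simulated data.

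The 49 genes, the further lists and the tests were chosen with earlier results of these data known, so counts over a list are descriptions. Values in every library are given where a gene was called in melatonin and its log2 fold change reached 0.4, and for others fixed by name. Up to 4 genes per further list are named, by size among called genes of at least 5 CPM, and 1 gene so chosen is not reported here. The technical sets were divided at 1.8% unmapped reads. Alternatives were DESeq2 1.42.0, limma-voom (limma 3.58.1), scaling by RLE or upper quartile, testing unfiltered genes or those with 5 CPM in 3 libraries, fitting just the 6 libraries of a comparison, blocking on replicate number, each strand column, protein-coding genes, the set term, each library left out and an adjusted p under 0.01. For the further lists these were added after the data were seen.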

Additional observations from a re-analysis of the deposited data

How the results depend on the processing

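Each of the 29 genes called in melatonin against control stayed positive in all 22 alternatives, 9 were called in every one and 16 in every one but the term for the technical set. All alternatives reuse the libraries in which these genes were selected as positive, which favours a kept sign. The count of 29 higher became 12 with that term and 17 at an adjusted p under 0.01. It ranged from 17 (without melatonin replicate 2) to 30 with each library left out, and was 19 without control replicate 2. None was lower in any of these. The 14 higher genes of melatonin against siCLOCK became 4 with the set term, 9 at an adjusted p under 0.01 and 9 to 17 with a library left out, and ATG7 was lower without the library labelled siCLOCK replicate 3 (0 to 1). In siCLOCK against control 2 genes were higher with no filter, 1 with DESeq2, 4 with the set term and 0 to 3 with a library left out. The other pathway genes in melatonin went from 56 higher to 16 with the set term and 38 to 62 with a library left out. Their 5 lower became 8 with no filter and with only the 6 libraries, 3 on the second strand and at an adjusted p under 0.01, 1 with the set term and 3 to 8 with a library left out. Over all 3 comparisons, 42 of the 147 values of the 49 genes changed sign under some alternative, none of them a called one. Among values given in the text, signs turned for WIPI1 in siCLOCK on the second strand (0.015), and without siCLOCK replicate 1 for FUCA1 (0.15, the range with a library left out being -0.20 to 0.15) and WIPI1 (0.14, range -0.23 to 0.14), for MITF in melatonin with the set term (0.29), and for TFEB in melatonin on the second strand (0.060) and without control replicate 1 (0.073) or melatonin replicate 1 (0.03), its range being -0.21 to 0.073. The causes were not tested.

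Replicate numbers are shared between groups, and the labels do not say whether they pair the libraries. Same-numbered libraries had correlations of their deviations from the group means between -0.0923 and 0.0629. With 3 libraries per group these values cannot decide whether same-numbered libraries were handled together. With a replicate block, 27 of the 29 calls in melatonin remained, NPC1 and MAP1LC3B being lost, and 13 of the 14 against siCLOCK. TFEB, with 55 counts in its lowest library, and MITF, with 14, are limited by depth.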
